A study of Drosophila melanogaster with 58 samples.

Results

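Gnmt, Ahcy, Sam-S, Cth and Cbs encode the enzymes that run S-adenosylmethionine (SAM) through the methionine cycle and out into transsulfuration, and their transcripts were followed through 15 diets in fly heads. The 5 genes were matched by symbol and CG number in the array's platform annotation, among 11982 genes with 1 symbol, and each was read by 1 probe set. The group was chosen by measured values: Gnmt and Ahcy had drawn attention through their difference between flies fed pentylenetetrazole (PTZ) and flies on normal food, and the later results for Gnmt were known too. The PTZ change of Gnmt, the difference between PTZ and normal food for all 5, and every other comparison of Gnmt or Ahcy that uses the normal food arrays or those of PTZ alone are therefore given as description, with no test.

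Sam-S encodes SAM synthetase, which joins methionine to the adenosyl group of ATP and makes the cell's main methyl donor. Gnmt encodes glycine N-methyltransferase, which passes a methyl group from SAM to glycine and leaves sarcosine and S-adenosylhomocysteine, and in flies it is known as a fat body enzyme that keeps SAM in check. Ahcy encodes the hydrolase that splits S-adenosylhomocysteine into homocysteine and adenosine. Cbs (cystathionine beta-synthase) then condenses homocysteine with serine, and Cth (cystathionine gamma-lyase) releases cysteine from the product.

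The flies were adult unmated Oregon R males, a wild-type laboratory strain, housed 30 to a vial at 25 °C and 10 days old after 7 days on the diet. RNA from their heads was hybridised to 58 Affymetrix Drosophila Genome 2.0 arrays in 15 groups of 4, except moxifloxacin with 2. The series title speaks of screening drugs for a new use in neuropsychiatry. Doses are not stated in the labels.

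Of the 8 groups without PTZ, 1 had normal food and 7 had a single compound, spelled in the labels as Levetiracetam (an antiepileptic drug), Glucosamine Hydrochloride (an amino sugar), Mannitol (a sugar alcohol), Olmesartan Medoxonil (an angiotensin receptor blocker), Quinapril Hydrochloride (an inhibitor of angiotensin-converting enzyme), Moxifloxacin Hydrochloride (an antibiotic) and Gemfibrozil (a lipid-lowering drug). The 7 groups with PTZ, a convulsant that blocks GABA-A receptors, had PTZ alone or with levetiracetam, glucosamine, mannitol, olmesartan, quinapril or the anti-inflammatory drug oxaprozin. Oxaprozin had no group without PTZ, and moxifloxacin and gemfibrozil had none with it. Values are log2 RMA levels, a difference of 1 is a doubling, levels carry the SD of the arrays and differences the SE of a limma fit over all 58 arrays. A probe set was called when its adjusted p was under 0.05.

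The labels give replicate numbers but do not say that arrays of a group came from separate vials, so p-values between groups measure the spread between arrays, which may be technical, and the number of arrays limits the precision. In every one of the 58 arrays the most similar array was of the same group. Array medians lay between 3.68 and 3.85. The head label was borne out by its markers: the mean level of 3 measured retina markers was 12.45 to 12.97 by group, that of 4 glia markers 9.22 to 9.88 and that of 5 neuron markers 7.93 to 9.32. Testis and accessory gland markers were at 7.17 on normal food, 2.64 (glucosamine) to 5.56 (moxifloxacin) in the 7 compounds without PTZ and 2.61 to 3.44 in the PTZ groups. RMA levels of different probe sets are not compared below. In whole heads, fewer cells of a type and less RNA per cell cannot be told apart.

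Gnmt divided the arrays by PTZ more widely than any other member. On normal food its 4 arrays read 7.10, 7.03, 7.33 and 7.00, and with PTZ alone 11.03, 11.10, 11.02 and 11.01. The group means were 7.12 ± 0.15 and 11.04 ± 0.042 (SD, n = 4 each), a difference of 3.92 ± 0.060 or 15.2-fold. The groups lay far apart and the PTZ arrays hardly differed among themselves. Over the whole series the lowest of 28 arrays with PTZ, in PTZ+glucosamine, read 10.24, and the highest of 30 without it, in mannitol, read 8.60.

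Ahcy, which removes the product that Gnmt makes from SAM, ran in the same order of size. Its normal food arrays read 5.31, 5.63, 5.05 and 4.997, and its PTZ arrays 8.15, 8.19, 8.17 and 8.26. The means were 5.25 ± 0.29 and 8.19 ± 0.046 (SD, n = 4 each), a difference of 2.95 ± 0.088 or 7.71-fold. The lowest Ahcy array with PTZ, again in PTZ+glucosamine, read 7.75, above the highest without PTZ, 6.72 in glucosamine.

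Sam-S, at the entry to the cycle, was set apart by a narrow margin. Its normal food arrays read 11.75, 11.77, 11.75 and 11.74, and its PTZ arrays 12.39, 12.28, 12.33 and 12.36, a difference of 0.59 ± 0.036. The lowest Sam-S array with PTZ read 11.97 and the highest without it, in moxifloxacin, 11.90, so that the groups were divided by 0.073. Every array with PTZ lay above every array without it for 0.533% of all probe sets, and for 3 of the 5 members, among them Gnmt and Ahcy, for which the choice of members bears on that count. The Sam-S and Cbs probe sets carry the suffix that Affymetrix gives to probes matching several transcripts, though the annotation names 1 gene for each.

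The transsulfuration genes Cth and Cbs overlapped between arrays with and without PTZ. Cth read 6.04, 6.03, 6.04 and 6.09 on normal food and 7.39, 7.46, 7.31 and 7.36 with PTZ, a difference of 1.33 ± 0.056. Cbs read 6.22, 6.27, 5.96 and 6.05 on normal food and 7.21, 7.31, 7.21 and 7.29 with PTZ, a difference of 1.13 ± 0.061. Both were separate in that pair of groups, and the overlap came from mannitol, olmesartan and PTZ+glucosamine arrays. The highest Cth array without PTZ, in mannitol, read 7.08 and the lowest with PTZ, in PTZ+glucosamine, 6.94. For Cbs these were 6.75, in olmesartan, and 6.73, in PTZ+glucosamine. In PTZ against normal food 50.3% of all probe sets were called, and nothing is read from the members there.

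**Figure D1:**
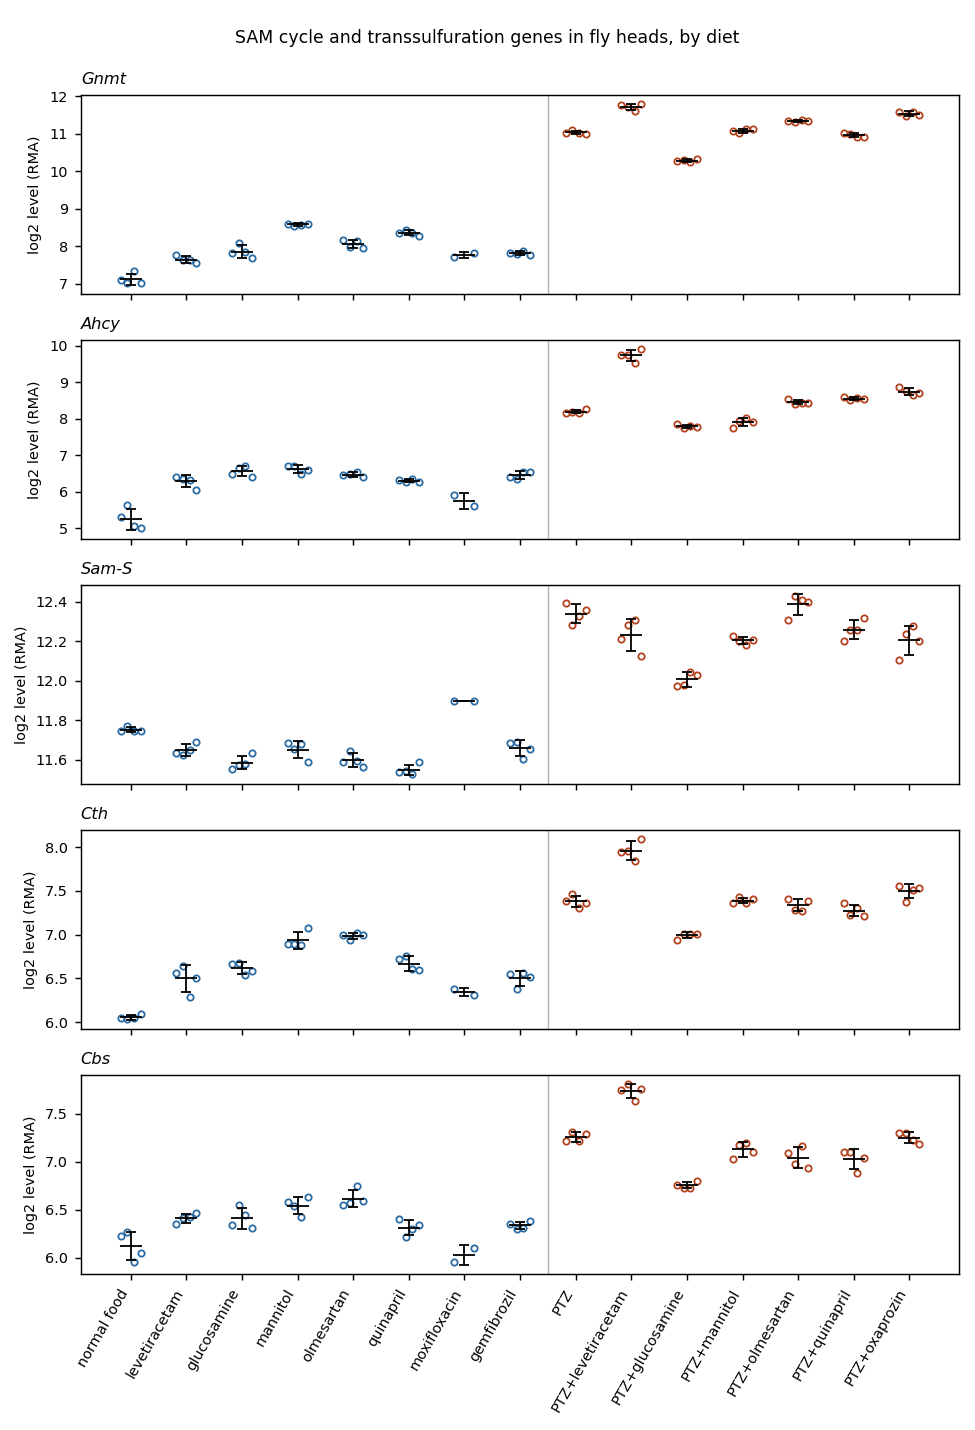
Log2 RMA level (vertical axes, a scale of its own for each gene) of the 5 members in each array (circles) of the 15 diet groups, without PTZ in blue and with PTZ in red; bars are the group mean ± SD, n = 4 and 2 for moxifloxacin. Gnmt, Ahcy and Sam-S have no PTZ array below an array without PTZ, with gaps of 1.63, 1.03 and 0.073.

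In the order of group means, normal food was lowest of all 15 groups for Gnmt, Ahcy and Cth, and second lowest for Cbs after moxifloxacin at 6.03 ± 0.10 (SD, n = 2). For Sam-S it was not: its lowest group was quinapril at 11.55 ± 0.026, and normal food stood at 11.75 ± 0.013 (SD, n = 4 each), below moxifloxacin only among the groups without PTZ. PTZ+levetiracetam was highest for Gnmt (11.72 ± 0.079), Ahcy (9.74 ± 0.16), Cth (7.96 ± 0.11) and Cbs (7.73 ± 0.076; SD, n = 4 each). For Sam-S the highest group was PTZ+olmesartan at 12.39 ± 0.054. PTZ+glucosamine was lowest of the 7 PTZ groups for every member.

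Many neighbours in these orders did not differ beyond the spread of their arrays. The arrays of neighbouring groups overlapped in 6 of 14 neighbouring pairs for Gnmt, 8 for Ahcy, 10 for Sam-S, 10 for Cth and 12 for Cbs. For Gnmt the overlaps linked PTZ+mannitol, PTZ alone and PTZ+quinapril among the groups with PTZ, and the run from olmesartan through glucosamine, gemfibrozil and moxifloxacin to levetiracetam among those without. Mannitol (8.58), quinapril (8.36) and normal food (7.12) each stood free of their neighbours. The SD within groups was 0.083 for Gnmt, 0.13 for Ahcy, 0.044 for Sam-S, 0.077 for Cth and 0.086 for Cbs, against an SD of the 15 group means of 1.73, 1.29, 0.31, 0.52 and 0.49.

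Whether PTZ went with the same differences when a second compound was in the food was asked in the 5 compounds given with and without it, whose arrays were not those of PTZ alone and normal food. Ahcy, Sam-S, Cth and Cbs were each higher with PTZ beside all 5 compounds, with adjusted p of 7.4e-06 or less. Their arrays with and without PTZ did not overlap in any of these pairs. How many of all probe sets did the same was not counted, so nothing is read from that separation. The share of all probe sets called higher was 22.7% beside levetiracetam, 15.2% beside glucosamine, 21.1% beside mannitol, 13.3% beside olmesartan and 20.3% beside quinapril.

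For Gnmt, with no test, the levetiracetam arrays read 7.76, 7.63, 7.64 and 7.54 and the PTZ+levetiracetam arrays 11.78, 11.72, 11.61 and 11.79, a difference of 4.08 ± 0.060. The glucosamine arrays read 7.82, 8.08, 7.86 and 7.67 and the PTZ+glucosamine arrays 10.27, 10.29, 10.24 and 10.33, a difference of 2.43 ± 0.060. The first of these differences was close to that on normal food, and the second was the smallest of the 5. Between them, Gnmt was higher with PTZ by 3.28 beside olmesartan, 2.60 beside quinapril and 2.504 beside mannitol. With the bioB block described below the difference beside glucosamine was 2.55.

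Ahcy rose most beside levetiracetam, from 6.42, 6.36, 6.32 and 6.04 to 9.75, 9.74, 9.54 and 9.92, a change of 3.45 ± 0.088. It rose least beside glucosamine, from 6.49, 6.66, 6.72 and 6.41 to 7.85, 7.75, 7.80 and 7.78, a change of 1.22 ± 0.088. With the bioB block described below that change was 1.30. Beside mannitol, olmesartan and quinapril the rises were 1.29, 1.99 and 2.25. All 3 lay nearer to the glucosamine pair than to the levetiracetam pair.

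Sam-S rose in the 5 pairs by 0.42 ± 0.036 beside glucosamine to 0.79 ± 0.036 beside olmesartan. The olmesartan arrays read 11.59, 11.65, 11.60 and 11.56 and the PTZ+olmesartan arrays 12.31, 12.43, 12.41 and 12.40. The rises beside levetiracetam, mannitol and quinapril were 0.58, 0.55 and 0.71. The order of the pairs changed with the processing. With a second quantile normalization the rise beside levetiracetam was 0.23 (adjusted p = 4.9e-06), the least of the 5, and that on normal food 0.38. In the fit that includes the 5′ to 3′ control signal, described below, the rise beside levetiracetam was 0.86, above the 0.80 beside olmesartan.

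Cth rose by 1.46 ± 0.056 beside levetiracetam and by 0.35 to 0.61 beside the other compounds. Its olmesartan arrays, at 7.00, 6.94, 7.01 and 7.00, already lay above every array of the other compounds except mannitol replicate 4, at 7.08. The PTZ+olmesartan arrays read 7.41, 7.28, 7.27 and 7.38. Cbs rose by 1.32 ± 0.061 beside levetiracetam, 0.71 beside quinapril, 0.58 beside mannitol, 0.42 beside olmesartan and 0.34 beside glucosamine. For both genes the levetiracetam pair stood apart from the other 4.

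**Figure D2:**
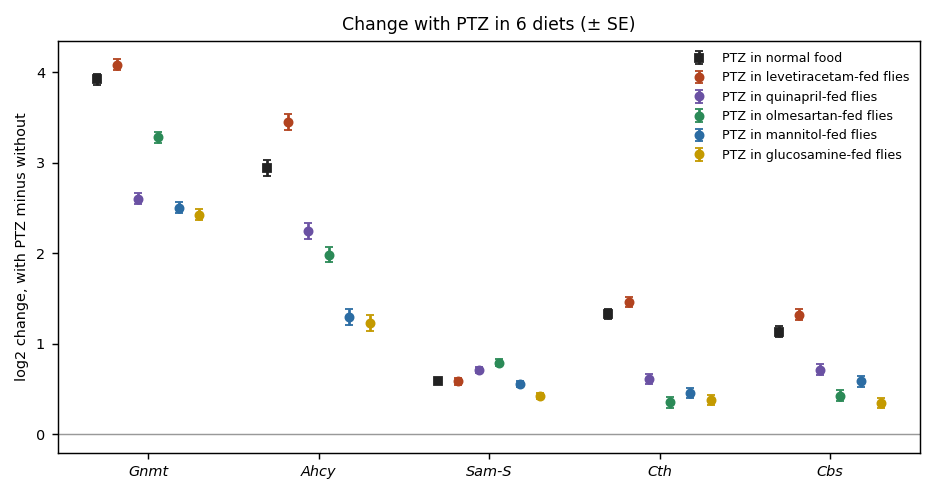
Difference in log2 level with PTZ minus without PTZ (vertical axis, ± SE of the limma fit) for each member on normal food (black squares, description only) and beside 5 compounds (circles). Beside levetiracetam Gnmt, Ahcy, Cth and Cbs differed by 4.08, 3.45, 1.46 and 1.32, and beside glucosamine by 2.43, 1.22, 0.37 and 0.34, while Sam-S lay between 0.42 and 0.79.

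The PTZ change differed among the 5 backgrounds for Ahcy, Sam-S, Cth and Cbs in limma's moderated F-test. In that test 64.8% of all probe sets were called, so that a call there is common. The greatest and least changes were 2.23 apart for Ahcy (adjusted p = 1.3e-21), 0.37 for Sam-S (1.1e-07), 1.11 for Cth (6.7e-18) and 0.98 for Cbs (6.4e-14). For Gnmt they were 1.66 apart, with no test. The greatest was beside levetiracetam and the least beside glucosamine for Gnmt, Ahcy and Cbs. All 4 PTZ+glucosamine arrays, and no glucosamine array, had the upper of the 2 levels of the bioB hybridisation control. With that level as a block the changes beside glucosamine were 2.55 for Gnmt and 1.30 for Ahcy. Both mannitol groups were at the upper level in all arrays, and the changes there were 2.504 and 1.29. Which pair was least thus depended on the setting for Gnmt and Ahcy. The 5′ minus 3′ signal of the array's eIF-4a and GAPDH controls, a sign of RNA length, also stood apart in PTZ+levetiracetam, at -4.14 on the log2 scale against -5.82 in levetiracetam and -6.42 on normal food. Fitted with that signal, the PTZ changes beside levetiracetam were 3.82 for Gnmt, 3.06 for Ahcy, 0.86 for Sam-S, 1.04 for Cth and 1.20 for Cbs, and the calls of the 4 tested members were kept.

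With the diet pair as the unit, so that only the 5 differences of group means counted as replicates, fewer calls were made. Ahcy was higher with PTZ by 2.04 ± 0.31, or 4.11-fold (adjusted p = 0.044), and Sam-S by 0.61 ± 0.073, or 1.53-fold (adjusted p = 0.024), each in 5 of 5 pairs. The rise of Ahcy was the 10th greatest of 18769 probe sets. Cth, at 0.65 ± 0.17 (adjusted p = 0.15), and Cbs, at 0.68 ± 0.14 (adjusted p = 0.096), were higher in 5 of 5 pairs but were not called. Gnmt was higher by 2.98 ± 0.25, or 7.89-fold, with no test. The share of all probe sets called was 1.01%, 0.517% higher and 0.490% lower. Ahcy was chosen for its difference between PTZ and normal food, which bears on its call and its rank here. Nothing is therefore read from the members' 2 calls of 4 against that share. Ahcy lost its call when the glucosamine, mannitol, olmesartan or quinapril pair was left out (adjusted p = 0.097, 0.085, 0.12 and 0.18), and so did Sam-S (0.067, 0.079, 0.090 and 0.13). Both also lost it with a trended, robust variance prior (adjusted p = 0.19 and 0.34).

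The 6 combinations were also set against the 7 single compounds by an exact two-sided permutation test over the 13 group means. Because 5 of the compounds occur on both sides, the means are not freely exchangeable, and the test ignores that pairing. The fit over pairs above, which uses it, called neither Cth nor Cbs. The combinations were higher by 2.18 for Ahcy, 0.56 for Sam-S, 0.76 for Cth and 0.77 for Cbs, each with an exact permutation p of 0.00058, the smallest that this design can give. With a second quantile normalization the difference of Sam-S was 0.46 (exact permutation p = 0.0017). For Gnmt the difference was 3.14, with no test. Every combination mean lay above every compound mean for 1.47% of all probe sets. For Cth the margin was slight, 6.992 in PTZ+glucosamine against 6.987 in olmesartan.

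Markers of other cells did not all hold level between these groups. The 7 measured fat body markers, of 8 listed, had a mean level of 9.94 to 10.5 in the PTZ groups and 9.82 to 10.998 without PTZ, lowest on normal food and highest in mannitol. Over the 5 pairs their median PTZ change was -0.30, with 0 called higher and 1, fit (a secreted fat body protein gene), called lower at -0.84. The 5 neuron markers had a median of -0.46, with 0 called higher and Appl (the fly amyloid precursor protein gene) called lower at -0.71. No retina, glia, gut, muscle, haemocyte, tubule or testis marker was called in that test, which called 1.01% of all probe sets. The 3 haemocyte markers had the largest median change of these lists, -0.62. Their mean level was 6.02 in mannitol and 4.12 in PTZ+mannitol, but 5.29 in glucosamine and 5.26 in PTZ+glucosamine. Testis and accessory gland markers were at 4.83 in levetiracetam and 2.61 in PTZ+levetiracetam, but at 2.77 in mannitol and 3.44 in PTZ+mannitol. Outside those pairs, the fat body mean was 9.82 on normal food and 10.46 with PTZ alone. The part of cell makeup in the members' differences was not tested.

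Single compounds without PTZ were next set against normal food. These 7 comparisons share the 4 normal food arrays, so that an odd value there enters all of them. Normal food also stood apart in its markers of other cells. Its testis and accessory gland markers were at 7.17 against 2.64 to 5.56 with the compounds, its gut markers at 6.12 against 3.47 to 4.62, and its fat body markers at 9.82 against 10.35 to 10.998. Their part in the values that follow was not tested. Cth and Cbs were called higher and Sam-S lower in levetiracetam, glucosamine, mannitol, olmesartan, gemfibrozil and quinapril. The share of all probe sets called higher was 21.0%, 22.4%, 22.9%, 25.7%, 25.3% and 25.1% in that order, and the share called lower 17.3%, 18.9%, 25.4%, 24.4%, 20.8% and 24.0%. With moxifloxacin, where 17.6% of probe sets were called higher, Sam-S and Cth were called higher and Cbs, at -0.093 ± 0.074 (adjusted p = 0.36), was not called.

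Gnmt, with no test, differed most with mannitol, whose arrays read 8.60, 8.53, 8.58 and 8.60, higher by 1.46 ± 0.060 or 2.76-fold. With quinapril the arrays read 8.36, 8.43, 8.35 and 8.28, higher by 1.24 ± 0.060. The remaining differences of Gnmt ran from 0.53 with levetiracetam to 0.94 with olmesartan. All Gnmt arrays of the 7 compounds, from 7.54 upward, lay above the highest normal food array.

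Ahcy, also with no test, was higher by 1.37 ± 0.088 with mannitol, or 2.59-fold, and by 1.04 to 1.32 with levetiracetam, quinapril, gemfibrozil, olmesartan and glucosamine. With moxifloxacin it read 5.90 and 5.60, which overlapped the normal food arrays, and the difference was 0.51 ± 0.11. Mannitol thus had the greatest difference of both Gnmt and Ahcy among the 7 compounds, and the differences between compounds were not tested.

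Cth rose by 0.93 ± 0.056 with olmesartan and 0.88 ± 0.056 with mannitol, against 0.29 ± 0.069 with moxifloxacin, the least. Cbs rose by 0.49 ± 0.061 with olmesartan and 0.42 with mannitol, and by 0.19 to 0.29 with levetiracetam, glucosamine, gemfibrozil and quinapril. The quinapril arrays of Cbs, at 6.40, 6.22, 6.30 and 6.34, overlapped those of normal food. That call (adjusted p = 0.0073) was lost without normal food replicate 3 (0.13, adjusted p = 0.076), with a second quantile normalization (0.087) and in the fit that includes the 5′ to 3′ signal (0.41). The call with gemfibrozil was lost with a second quantile normalization (0.14, adjusted p = 0.0501) and with the bioB level as a block (adjusted p = 0.065).

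Sam-S fell in 6 of these comparisons, by small amounts. With quinapril the arrays read 11.54, 11.54, 11.53 and 11.59, and the change was -0.20 ± 0.036 (adjusted p = 3.3e-06). The falls with glucosamine and olmesartan were -0.17 and -0.15, and those with levetiracetam, mannitol and gemfibrozil -0.10, -0.10 and -0.094. Moxifloxacin, whose arrays both read 11.90, gave a rise of 0.15 ± 0.044 (adjusted p = 0.0066). In the fit that includes the 5′ to 3′ signal none of the 6 falls was called (adjusted p = 0.25 to 0.96) and the mannitol value turned to 0.050. With a second quantile normalization all 6 were called and 5 were larger than these by over 1.5 times, at -0.42 with quinapril, -0.38 with mannitol, -0.35 with olmesartan, -0.31 with glucosamine and -0.30 with gemfibrozil, against -0.12 with levetiracetam (adjusted p = 0.021). The falls with levetiracetam, mannitol and gemfibrozil were also lost without single arrays, such as normal food replicate 2 for levetiracetam (-0.096, adjusted p = 0.0503) and gemfibrozil (-0.088, adjusted p = 0.066), levetiracetam replicate 2 (adjusted p = 0.057), mannitol replicate 4 (-0.080, adjusted p = 0.085) and gemfibrozil replicates 3 and 4 (adjusted p = 0.12 and 0.051). The rise with moxifloxacin was lost without its replicate 2 (0.14, adjusted p = 0.052) and with a second quantile normalization (0.045, adjusted p = 0.56). Normal food had the lowest 5′ to 3′ signal of all groups, and moxifloxacin, at -6.21, the next lowest.

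**Figure D3:**
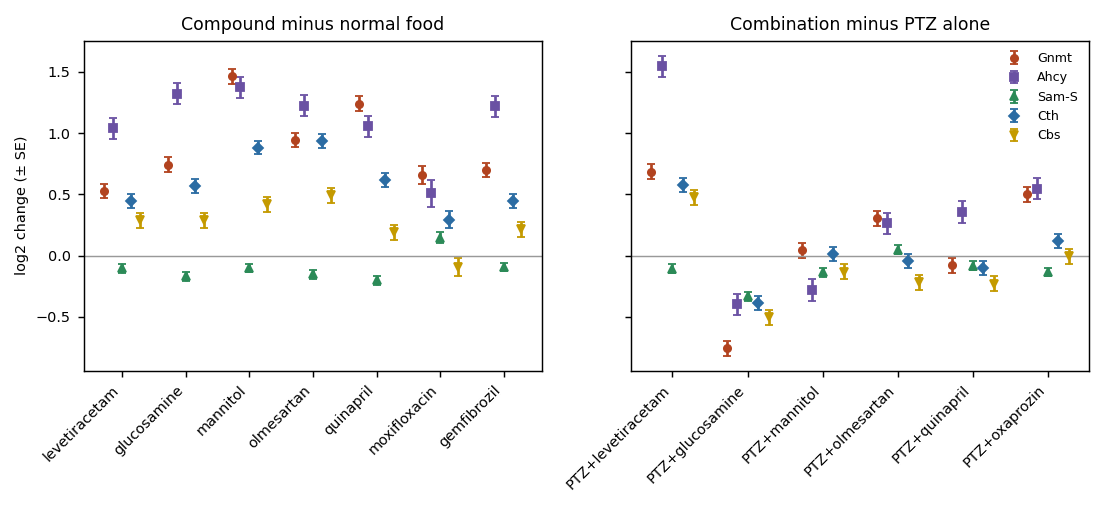
Differences in log2 level (vertical axes, ± SE of the limma fit) of the 5 members, for 7 compounds minus normal food on the left and 6 combinations minus PTZ alone on the right. On the left Sam-S lies below 0 except with moxifloxacin while Gnmt, Ahcy and Cth lie above, and on the right PTZ+glucosamine is the one diet with all 5 members below 0.

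The 6 combinations were set against PTZ alone, and share its 4 arrays. In PTZ+glucosamine all 5 members had lower means, and the 3 that were tested were called lower, where 12.4% of all probe sets were. Cbs fell by 0.50, Cth by 0.39 and Sam-S by 0.33 (adjusted p of 3.1e-07 or less). Gnmt was at -0.76 and Ahcy at -0.40, with no test. The arrays of PTZ+glucosamine and PTZ alone did not overlap for any of the 5, and the share of all probe sets without overlap was not counted. All 4 PTZ+glucosamine arrays, and none of PTZ alone, had the upper of the 2 levels of the bioB hybridisation control. With that level as a block the 3 tested members were still called.

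With PTZ+levetiracetam Cth rose by 0.58 ± 0.056 and Cbs by 0.48 ± 0.061, where 38.5% of all probe sets were called in either direction. With no test, Gnmt was higher by 0.68 ± 0.060 and Ahcy by 1.54 ± 0.088, or 2.92-fold. Sam-S was lower by -0.11 ± 0.036 (adjusted p = 0.013), with overlapping arrays, and was not called without PTZ replicate 1 (adjusted p = 0.062) or PTZ+levetiracetam replicate 4 (adjusted p = 0.12). In the fit that includes the 5′ to 3′ signal Cth (0.20, adjusted p = 0.35) and Cbs (0.36, adjusted p = 0.10) were not called, Sam-S turned to 0.14 (adjusted p = 0.26), and Gnmt and Ahcy stood at 0.45 and 1.18.

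PTZ+oxaprozin had the next highest 5′ to 3′ signal, at -4.73. There Sam-S fell by 0.13, and Cth (0.12) and Cbs (-0.0076) were not called, where 35.6% of all probe sets were called in either direction. Gnmt was higher by 0.50 ± 0.060 and Ahcy by 0.55 ± 0.088, with no test. With the signal as a covariate Sam-S was at 0.019, Gnmt at 0.36 and Ahcy at 0.33. Cth was called without PTZ+oxaprozin replicate 2 (0.16, adjusted p = 0.037).

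In the other 3 combinations 1 of the 3 tested members was called in each. With PTZ+olmesartan Cbs fell by 0.22 and Sam-S and Cth were not called, where 30.4% of all probe sets were. With PTZ+quinapril Cbs fell by 0.23 and Sam-S and Cth were not called, where 21.5% were. With PTZ+mannitol Sam-S fell by 0.14, while Cth (0.010) and Cbs (-0.13) were not called, where 33.5% were. That fall of Sam-S was not called with the bioB level as a block (-0.14, adjusted p = 0.077). With no test, Gnmt stood at 0.30 and Ahcy at 0.26 with PTZ+olmesartan, at -0.080 and 0.36 with PTZ+quinapril, and at 0.043 and -0.28 with PTZ+mannitol.

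Within the groups without PTZ and within those with it, the members other than Sam-S were positively correlated in all 6 pairs of genes. Over the 8 group means without PTZ Pearson's r ran from 0.58 for Gnmt with Cbs and 0.75 for Gnmt with Ahcy to 0.87 for Cth with Cbs. Over the 7 with PTZ it ran from 0.80 for Gnmt with Ahcy to 0.98 for Cth with Cbs. Over the 8 groups without PTZ the r of Sam-S was -0.47 for Gnmt, -0.69 for Ahcy, -0.61 for Cth and -0.76 for Cbs. These were -0.60, -0.87, -0.77 and -0.80 without moxifloxacin and quinapril, the groups farthest from the median of Sam-S. Normal food was kept there. Normal food and moxifloxacin had the highest Sam-S and the lowest Ahcy, Cth and Cbs of the 8 groups, and r without these 2 was not computed. With PTZ the same correlations of Sam-S were 0.58, 0.27, 0.35 and 0.36, and -0.46, -0.21, -0.26 and -0.068 without PTZ+glucosamine and PTZ+olmesartan, so that they rested on those 2 groups. Each r is a description of these few group means, whose members were measured on the same arrays.

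**Figure D4:**
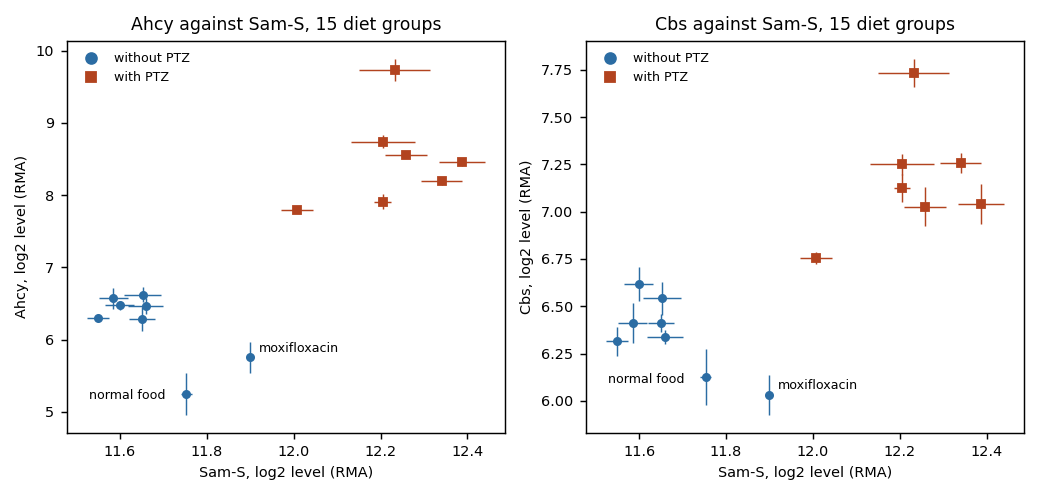
Group mean log2 level of Ahcy (left) and Cbs (right) against that of Sam-S, ± SD of the arrays, for the 8 groups without PTZ (circles) and the 7 with PTZ (squares). The PTZ groups lie up and to the right of the others for Ahcy, and among the circles normal food and moxifloxacin have the highest Sam-S and the lowest Ahcy and Cbs.

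The genes whose pattern was most like that of each member were found over the 15 group means, among 11982 genes, where the division between groups with and without PTZ weighs most. For Gnmt they were Gart (r = 0.989), CG9360 (0.986), Nmdmc (0.986), CG8112 (0.984) and CG9498 (0.983). For Ahcy they were Pgm2a (0.989), Shmt (0.975) and CG9485 (0.974). For Cth they were CG4390 (0.991), CG11899 (0.980) and CG12171 (0.978), and for Cbs CG11842 (0.979), CG5577 (0.978) and CG14630 (0.975). Sam-S had less close neighbours, CG9008 (0.961), CG31809 (0.941) and Miox (0.935). No member was among these genes for another member.

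Genes next to the members in the pathway were read over the 5 pairs with and without PTZ, by the test with the diet pair as the unit. Of 13 genes of methionine salvage, polyamine synthesis and methyl donors, 1 was called higher, 0 lower and 12 were not called. The median change was -0.096 against 0.0035 over all probe sets, of which 0.517% were called higher and 0.490% lower. The 1 called was Adi1, the acireductone dioxygenase of methionine salvage, which rose by 0.52 (adjusted p = 0.022). MsrA had a greater mean rise, 0.69, but was not called (adjusted p = 0.22). The greatest falls were those of CG7560 (-0.28), CG10621 (-0.27) and Mtap (-0.21), also not called. AhcyL1 and AhcyL2, the fly's Ahcy-like genes, were at -0.11 and -0.096 and were not called. AhcyL2 lay on both sides of 0, at 0.82 beside levetiracetam, 0.21 beside glucosamine, -0.25 beside quinapril, -0.30 beside olmesartan and -0.96 beside mannitol, and at 0.91 in PTZ against normal food. In the single pairs of groups the whole list was called higher and lower in 9 and 4 genes beside levetiracetam, 6 and 6 beside glucosamine, 4 and 9 beside mannitol, 2 and 7 beside olmesartan and 2 and 8 beside quinapril. In that order 22.7%, 15.2%, 21.1%, 13.3% and 20.3% of all probe sets were called higher. The shares called lower were 27.9%, 15.9%, 22.0%, 15.2% and 20.2%.

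Among the enzymes that spend SAM on proteins and nucleic acids, 12 of 15 listed were measured, with a median of 0.082. Of these 0 were called in either direction, where 1.01% of all probe sets were. An unadjusted p under 0.05 was found for 1 of the 12, and for 2558 of all 18769 probe sets. Nothing about these enzymes is read from either count. The greatest rises were those of Pcmt (0.51), Hen1, the small RNA methyltransferase (0.31), and Art8 (0.30). Pcmt was higher in 5 of 5 pairs, by 1.72 beside levetiracetam. The greatest falls were those of Mettl14 (-0.072), csul (-0.070) and Art2 (-0.063), and Art1, the main arginine methyltransferase, was at -0.017. In the single pairs of groups, where the arrays are the replicates, 3 of the 12 were called higher beside levetiracetam, glucosamine and quinapril each, 6 beside mannitol and 0 beside olmesartan, and 0 or 1 lower. The shares of all probe sets called higher were 22.7%, 15.2%, 20.3%, 21.1% and 13.3% in that order, and 15.2% to 27.9% were called lower. In PTZ against normal food 7 were called higher and 0 lower, where 23.9% of all probe sets were called higher and 26.4% lower. Downstream of Cth, 5 of 7 listed genes of glutathione synthesis and cysteine breakdown were measured. Over the 5 pairs 0 were called and 3 had an unadjusted p under 0.05, with a median of 0.11. The shares of all probe sets are those given above for the methyltransferases. In the single pairs 4 were called higher and 1 lower beside levetiracetam, and 2 and 2 beside glucosamine. Beside mannitol, olmesartan and quinapril these were 3 and 2, 3 and 1, and 2 and 1. In PTZ against normal food 3 were called higher and 0 lower. Over the 5 pairs shop was at 0.46 (adjusted p = 0.13) and CG5618 at -0.52 (adjusted p = 0.22). Gclc, the catalytic subunit of the enzyme that starts glutathione synthesis, was at 0.23 (adjusted p = 0.18).

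The glycine and folate genes, which supply and take up the 1-carbon units that meet the cycle at glycine and homocysteine, were read by the same test. Of 11 listed, 10 were measured, and 5 were called higher, 0 lower and 5 were not called, with a median of 0.62, where 0.517% of all probe sets were called higher. Like the other lists it was chosen with earlier results of these data known. Those called were Nmdmc (2.39), a mitochondrial folate dehydrogenase and cyclohydrolase, CG3999 (2.31), Shmt (1.33), serine hydroxymethyltransferase, Sardh (1.14), which oxidises the sarcosine that Gnmt makes, and pug (0.75), which interconverts folates. All 5 were higher in 5 of 5 pairs. Their adjusted p lay between 0.0062 (CG3999) and 0.049 (pug), in a test whose calls over all probe sets went from 189 to 13 with a trended, robust variance prior and to 5 without the olmesartan or the quinapril pair.

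**Figure D5:**
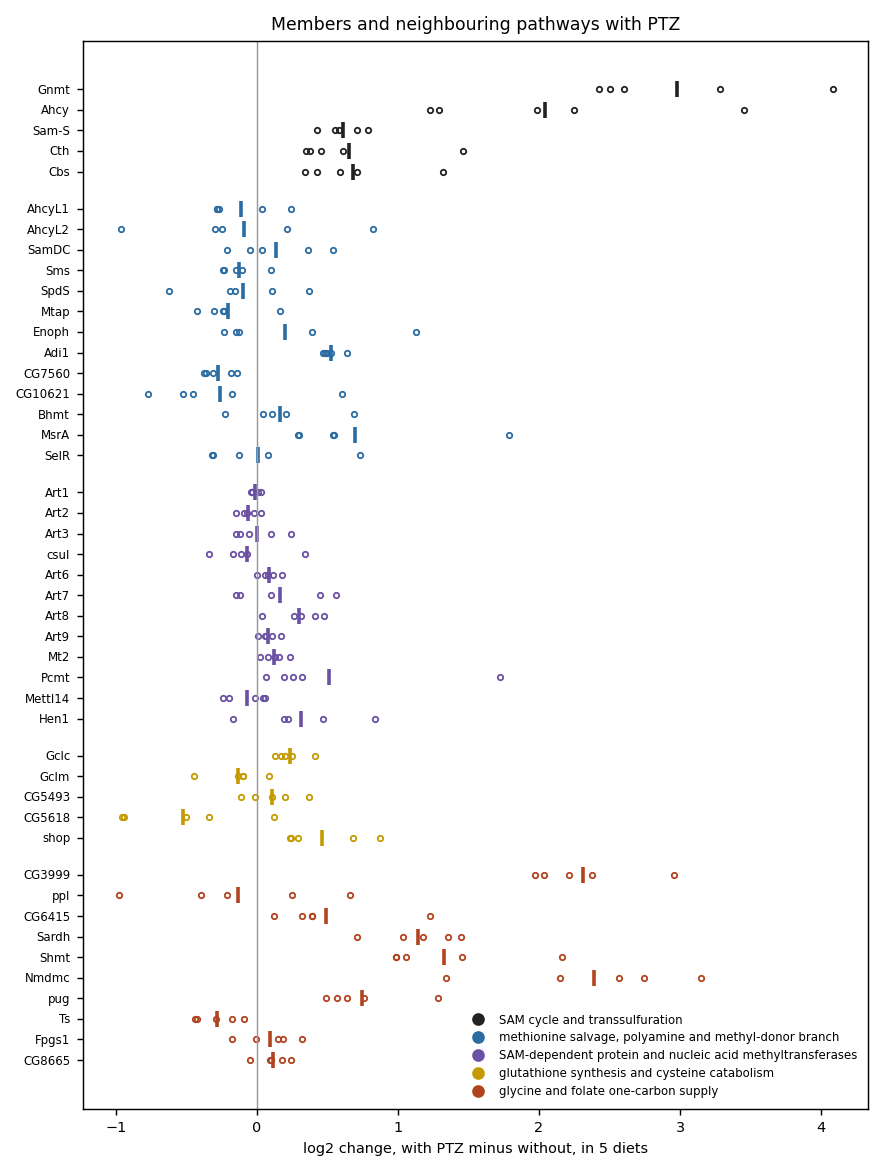
Difference in log2 level with PTZ minus without PTZ (horizontal axis) beside 5 compounds (circles) with their mean (vertical bars), for the 5 members and 40 measured genes of neighbouring pathways. Gnmt and Ahcy, at means of 2.98 and 2.04, lie with CG3999 and Nmdmc to the right, and the circles of most salvage, methyltransferase and glutathione genes lie on both sides of 0 or close to it.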

How the data were processed

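The authors deposited 1 series table of log2 expression values made with RMA, which corrects background, quantile normalizes and summarizes probes, per the submitters' processing notes; their versions were not stated there. A change shared by most transcripts is removed by that step. Labelling started from 250 ng of RNA with a 3′ IVT kit, per the labels' protocols. Of 18952 probe sets 183 controls were left out and 18769 tested. In the platform annotation 13647 have 1 gene symbol, 402 several and 4720 none, and 13544 of the first were matched to current symbols in RefSeq's Release 6 plus ISO1 MT table. The brightest probe set stood for a gene. No sequences were used here.

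The 5 members and all lists were chosen with earlier results of these data known. A mean per group was fitted over 58 arrays with limma 3.58.1 in R 4.3.3 (43 residual and 3.88 prior degrees of freedom), with Benjamini-Hochberg adjustment over all probe sets within each comparison. The fit over 5 diet pairs had 4 residual degrees of freedom. The members and the 5 (Gnmt) or 3 genes most correlated with a member were to be named. From a pathway list the called genes were to be named, first its 3 greatest rises and 3 greatest falls over the 5 pairs. Not all of those rises and falls were named, and a few uncalled pathway genes were named after their values were seen. List genes without a probe set of 1 symbol, such as Art4, Mettl3, Gss1 and the marker ninaE, were not analysed here. The code was tested on simulated data. Alternatives were empirical Bayes with a trended, robust variance prior, quantile normalization repeated on the deposited values, dropping the dimmest 40% of probe sets, fitting the compared groups alone, blocking on the replicate number, adding the 5′ to 3′ signal as covariate, blocking on the bioB level (bioB minus bioC over or under -3) and leaving out arrays, pairs or groups. Python 3.11.15 with matplotlib 3.10.9 drew the figures.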

Additional observations from a re-analysis of the deposited data

Results flagged for a closer look

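In groups of 4 arrays, 3 member values stood farther from the other arrays of their group than Dixon's limit, of 70 groups examined. Chance gives about 1 in 20. Sam-S read 11.77 in normal food replicate 2, where the nearest array read 11.75. Cth read 7.08 in mannitol replicate 4, with the nearest at 6.89, and 6.94 in PTZ+glucosamine replicate 1, with the nearest at 7.01. In the first case the group's SD was 0.013, and the falls of Sam-S with levetiracetam and gemfibrozil against normal food were not called without that array (adjusted p = 0.0503 and 0.066). The mannitol array was the highest Cth array without PTZ and the PTZ+glucosamine array the lowest with it, and 3 olmesartan arrays also lay between them.

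The PTZ change differed among the 5 compounds given with and without it for Ahcy, Sam-S, Cth and Cbs, in the F-test described above. Gnmt is given with no test. The greatest and least changes were 1.66 apart for Gnmt, 2.23 for Ahcy, 0.37 for Sam-S, 1.11 for Cth and 0.98 for Cbs. The greatest changes of Gnmt, Ahcy, Cth and Cbs were beside levetiracetam, where the 5′ to 3′ control signal rose with PTZ from -5.82 to -4.14, and that of Sam-S, fitted without that signal, beside olmesartan, where the signal was -5.84 and -5.78.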

How the results depend on the processing

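Of 740 member values under other settings, 672 kept direction and side of the threshold, 28 lost a call, 5 gained one, 31 untested values moved by over 1 SD and 4 reversed. Leaving out 1 array, pair or group kept 1467 of 1490. The reversals were Gnmt in PTZ+mannitol against PTZ with a second quantile normalization (-0.015) and, with the 5′ to 3′ covariate, Sam-S with mannitol against normal food (0.050), PTZ+levetiracetam against PTZ (0.14) and PTZ+oxaprozin against PTZ (0.019). The results over 5 pairs depended most on the setting. Probe sets called there went from 189 to 13 with the trended robust prior, 446 with the 5′ to 3′ covariate, 61 with the bioB block, 554 with PTZ against normal food as another pair, and 5 to 290 with a pair left out (5 without quinapril or olmesartan, 29 without mannitol, 38 without glucosamine, 290 without levetiracetam). Ahcy lost its call with the robust prior (2.04, adjusted p = 0.19), second quantile normalization (2.05, adjusted p = 0.052) and bioB block (2.12, adjusted p = 0.089), and Sam-S with the first (0.61, adjusted p = 0.34) and the second (0.53, adjusted p = 0.074). Cbs gained one with the covariate (0.55, adjusted p = 0.047), and stood at 0.75 with PTZ against normal food added, a pair that helped to choose the members, so that no test is read from it. With a pair or array left out, Ahcy ran from 1.69 to 2.24, Sam-S from 0.57 to 0.66, Cth from 0.45 to 0.72 and Cbs from 0.52 to 0.76, and Cth and Cbs were called without levetiracetam (adjusted p = 0.045 and 0.040). Among other counts of probe sets called, the covariate took PTZ+levetiracetam against levetiracetam from 9487 to 4716, against PTZ from 7218 to 3419, and glucosamine against normal food from 7769 to 4997. The bioB block took PTZ+glucosamine against glucosamine from 5830 to 3700, against PTZ from 4532 to 2146, and PTZ+mannitol against PTZ from 6287 to 3948. Fitting only the groups compared took PTZ+quinapril against PTZ from 4026 to 2294. The causes of these shifts were not tested.

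Replicate numbers did not pair the arrays: in 0 of 19 comparisons did every same-numbered pair deviate together with a correlation over 0.1. With the replicate block, 9433 probe sets were called in PTZ against normal food, against 9442, and no member's call changed. The block gives no value over pairs of means. The mean of a member's probe sets gives no other value, since each member has 1.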
